A study of Caenorhabditis elegans with 12 samples.

Results

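Replicate 3 and replicate 1 of each RNAi treatment were set against each other in 6 of the 12 mRNA-seq libraries of a study on arrested first-stage (L1) larvae of the nematode Caenorhabditis elegans. There were 3 groups of 4 cultures. The parents of the larvae were fed HT115 bacteria with double-stranded RNA against daf-2, with double-stranded RNA against pitr-1, or with an empty vector. Larvae and parents of all groups, the empty vector group included, carried hrde-1(tm1200), so no wild type animals entered any comparison. Parents grew on the RNAi bacteria for 72 h, embryos were freed by bleaching and hatched without food, and freezing followed about 24 h after the bleach. Each group thus gave 1 pair, replicate 3 minus replicate 1, and the daf-2 and pitr-1 RNAi pairs were also set apart from the empty vector pair. The labels number the cultures as biological replicates and do not say what cultures of the same number share, so a day or a batch cannot be named.

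These 2 replicate numbers were chosen by the positions of the 12 libraries on the first principal component of these same counts, that is, from measured values. Differences between replicates 3 and 1 are therefore given as a description, with no p-value for a gene or a list. Counts of genes past a threshold on p are printed for their size alone, and nothing is read from them. Each pair is 1 library against 1 library, so a pair difference has no replicate error of its own. The spread between pairs, and the pairs of replicate 4 minus replicate 2 in the same groups, show how far such differences vary.

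C. elegans larvae that hatch without food stop in the first larval stage: their cells do not divide, and they live on reserves until food arrives. Insulin-like peptides from neurons and intestine act on DAF-2, the insulin/IGF receptor, to govern entry into and exit from this arrest. pitr-1 encodes a phosphate transporter of the PiT family, and hrde-1 encodes a nuclear Argonaute protein that carries small-RNA silencing across generations in the germline. Shortly before hatching an embryo secretes its first cuticle, built largely of collagens, and still carries the last of the RNA that the mother placed in the egg. Markers of these processes (germline and maternal RNA, eggshell, cell division, cuticle) were therefore followed beside neuropeptides, insulins, ribosomal proteins and mitochondrial transcripts.

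The 6 libraries held 5907286 to 11264146 counts assigned to genes, and the 6 libraries of replicates 4 and 2 held 8808958 to 11490429. Ribosomal RNA took 35.4%, 30.1% and 42.2% of the gene counts in replicate 3 of daf-2 RNAi, pitr-1 RNAi and empty vector, against 18.9%, 42.2% and 47.1% in replicate 1. Replicate 1 of pitr-1 RNAi was the shallowest library, with 3416305 counts outside ribosomal RNA, and 39.8% of its reads were not aligned. The 8 mitochondrially encoded mRNAs measured took 3.90%, 4.66% and 5.18% of the other counts in replicate 3, against 6.50%, 6.28% and 5.30% in replicate 1, and 0.585% to 1.13% in replicates 4 and 2. RNA of adults was scarce in the 6 libraries: the 6 vitellogenin genes summed to 2.42 to 14.1 CPM, and 35 of 63 sperm genes had no count in any of the 6.

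The empty vector pair ran opposite to the daf-2 and pitr-1 RNAi pairs on the first principal component, which held 51.8% of the variance of log2 CPM (counts scaled to library size) over 9898 genes. daf-2 RNAi lay at -1.37 in replicate 3 and -45.1 in replicate 1. pitr-1 RNAi lay at -4.85 in replicate 3 and -64.3 in replicate 1. Empty vector lay at -38.6 in replicate 3 and -22.2 in replicate 1, the other way round. All libraries of replicates 4 and 2 lay between 21.5 and 35.9. In the RNAi groups replicate 3 was thus the library nearer to replicates 4 and 2, and in the empty vector group replicate 1 was.

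**Figure D1:**
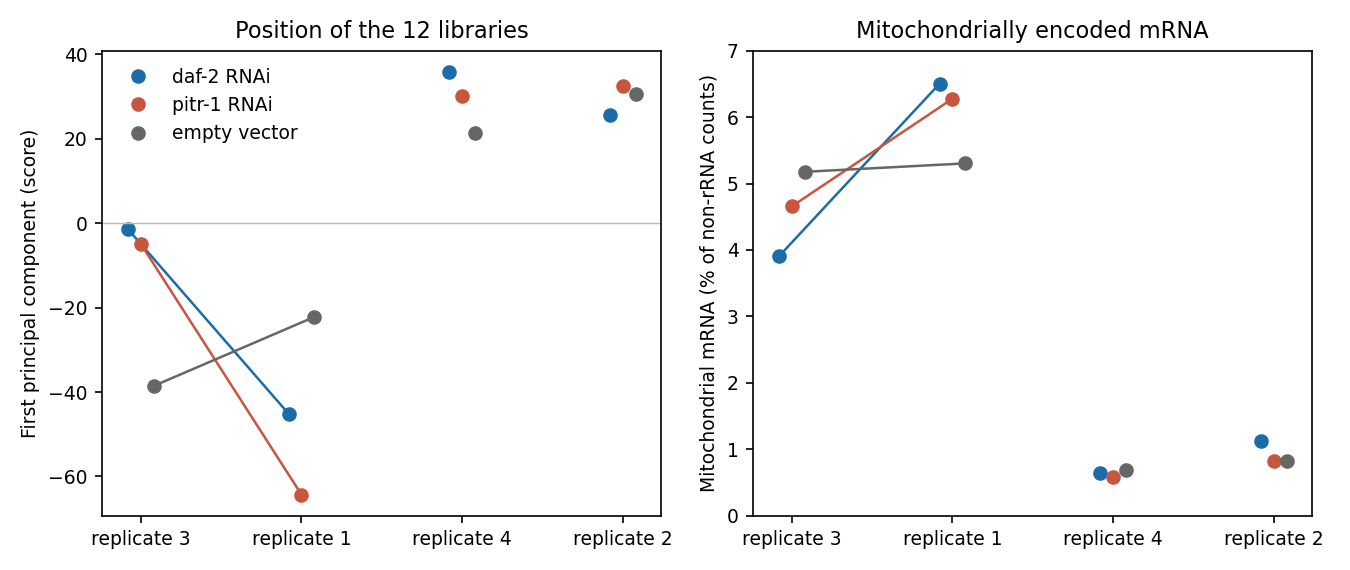
Position of each library on the first principal component (left, score) and share of mitochondrially encoded mRNA in the counts outside ribosomal RNA (right, percent), by replicate; each point is 1 library and lines join replicate 3 to replicate 1 of a group. Replicate 3 lies near 0 and replicate 1 at -45.1 and -64.3 in daf-2 and pitr-1 RNAi, while in empty vector replicate 3 lies at -38.6 and replicate 1 above it at -22.2.

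The genes aimed at by the RNAi of the parents were read first. daf-2 had 43.5 CPM in replicate 3 of daf-2 RNAi and 21.9 CPM in replicate 1, the lowest value of the 12 libraries. pitr-1 RNAi had 33.9 and 40.6 CPM of daf-2 in replicates 3 and 1, and empty vector had 46.6 and 85.3 CPM. In replicates 4 and 2 daf-2 lay between 59.6 and 67.2 CPM in all 3 groups. Against the empty vector library of the same number, daf-2 was therefore near equal in replicate 3 of daf-2 RNAi and well below it in replicate 1. pitr-1 had 190.0 and 179 CPM in replicate 3 of daf-2 and pitr-1 RNAi, against 299 and 322 CPM in replicate 1. It had 209.8 CPM in replicate 3 and 248 CPM in replicate 1 of empty vector, so that pitr-1 RNAi did not stand below empty vector in replicate 1. hrde-1 counts were low everywhere, at 1.82, 2.15 and 2.55 CPM in replicate 3 of daf-2 RNAi, pitr-1 RNAi and empty vector, against 2.99, 3.93 and 3.47 CPM in replicate 1. The larvae are progeny of the fed animals, so these levels do not measure the knockdown in the parents.

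Over all 3 pairs together, no gene of the 14664 tested was called between replicates 3 and 1 (0% called, edgeR, adjusted p under 0.05 after Benjamini and Hochberg). At an unadjusted p under 0.05 the same fit had 1299 genes higher and 1280 lower in replicate 3, and DESeq2 called 297 higher and 250 lower. Without replicate 1 of empty vector edgeR called 833 genes higher and 1127 lower, without replicate 3 of empty vector 471 higher and 509 lower, and without both 1514 higher and 1516 lower. Leaving out a daf-2 or pitr-1 RNAi library, or either of those pairs, left the count at 0. Replicates 4 and 2, fitted in the same model, had no called gene either (0% called), 265 higher and 334 lower at an unadjusted p under 0.05, and 8 higher and 30 lower by DESeq2.

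In the daf-2 and pitr-1 RNAi pairs alone, 1424 genes were called higher (9.71% called) and 1672 lower (11.4% called) in replicate 3. The difference between these pairs and the empty vector pair was called for 877 genes with the RNAi pairs higher (5.98% called) and 1184 with the RNAi pairs lower (8.07% called). As the libraries were chosen by the component on which the pairs part, nothing is read from these counts. The count for the RNAi pairs was 1433 in all without replicate 3 of daf-2 RNAi and 1121 without replicate 3 of pitr-1 RNAi. The count for the difference was 3753 without replicate 1 of daf-2 RNAi, 3164 without replicate 1 of pitr-1 RNAi, 1094 without replicate 3 of daf-2 RNAi and 951 without replicate 3 of pitr-1 RNAi.

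Single pairs differed widely in size. The daf-2 RNAi pair had 1682 genes more than 2-fold higher in replicate 3 (11.5%) and 919 more than 2-fold lower (6.27%). The pitr-1 RNAi pair had 2675 higher (18.2%) and 1770 lower (12.1%), and the empty vector pair 1755 higher (12%) and 1376 lower (9.38%). The same counts for replicate 4 minus replicate 2 took 7.37%, 4.60% and 7.67% of the genes in daf-2 RNAi, pitr-1 RNAi and empty vector, both directions together. Scaling by total counts outside ribosomal RNA in place of TMM moved the median of all genes to 0.19 and 0.48 log2 in the daf-2 and pitr-1 RNAi pairs and to -0.03 in the empty vector pair, against 0.01, 0.04 and 0.04 with TMM. With that scaling 79.0% of the genes past 2-fold in the daf-2 RNAi pair were higher, against 64.7% with TMM, and 83.6% in the pitr-1 RNAi pair, against 60.2% with TMM. Differences here are therefore relative to the typical gene of a library.

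The 3 pairs share no library. Of the genes past 2-fold higher in replicate 3, the daf-2 and pitr-1 RNAi pairs had 860 in common, which is 51.1% of those of the daf-2 RNAi pair and 32.1% of those of the pitr-1 RNAi pair. Of the genes past 2-fold lower, 408 were shared, 44.4% of the daf-2 RNAi list and 23.1% of the pitr-1 RNAi list. The daf-2 RNAi and empty vector pairs had 309 higher genes in common (18.4% and 17.6% of their lists), and 123 lower ones (13.4% and 8.94%). The pitr-1 RNAi and empty vector pairs had 547 higher genes in common (20.4% and 31.2% of their lists), and 189 lower ones (10.7% and 13.7%). Over the 9898 genes of at least 5 CPM on average, Pearson's r across genes was 0.59 between the daf-2 and pitr-1 RNAi pairs, -0.21 between daf-2 RNAi and empty vector, and -0.15 between pitr-1 RNAi and empty vector. Genes are not independent replicates, so these are descriptions of 6 libraries. The same r between the pairs of replicate 4 minus 2 was 0.42, 0.31 and 0.39, so all 3 values were positive and none was strong. Replicates 3 and 1 were chosen by a component on which the empty vector pair already ran opposite. The negative r values therefore restate that choice in part, and nothing is read from their distance to those of replicates 4 and 2.

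**Figure D2:**
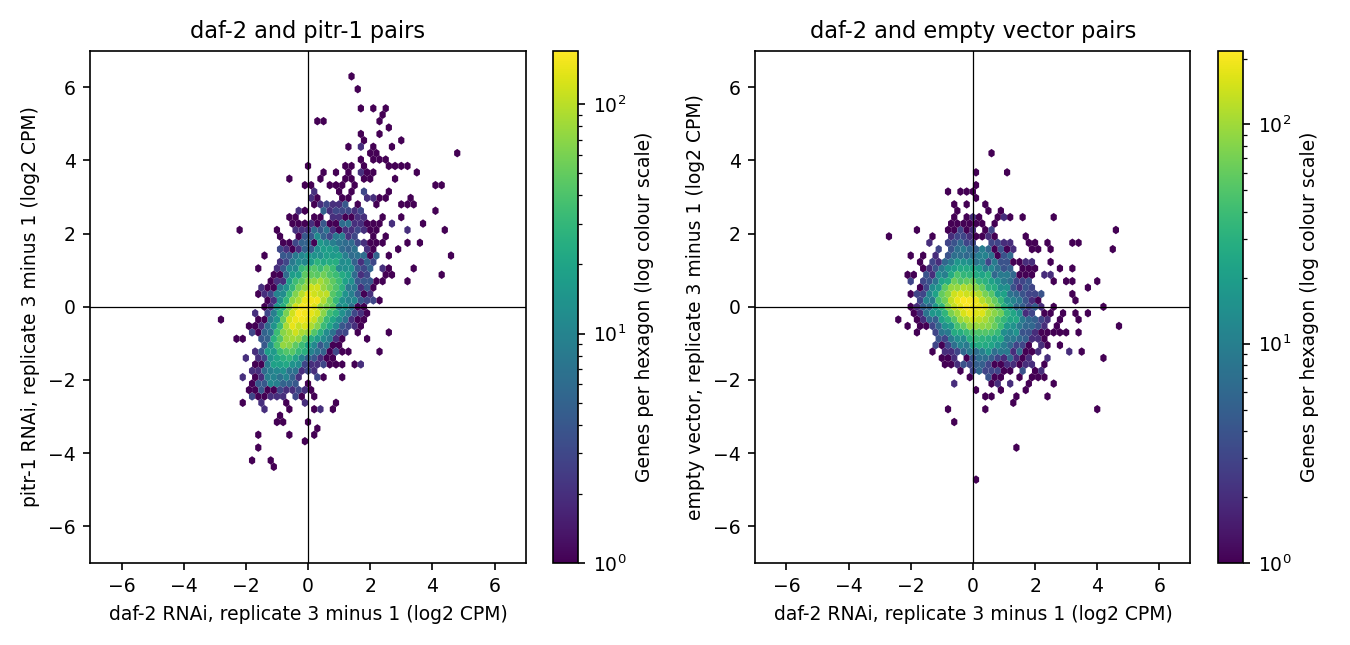
Replicate 3 minus replicate 1 (log2 CPM) of 9898 genes, with the daf-2 RNAi pair on the horizontal axis and the pitr-1 RNAi pair (left) or the empty vector pair (right) on the vertical axis; colour gives the number of genes in a hexagon on a log scale. The cloud on the left rises with r = 0.59, and that on the right falls slightly with r = -0.21.

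Set against the mean of replicates 4 and 2 of their own group, the genes called higher in replicate 3 of the RNAi pairs were at a median of 0.03 and 0.00 log2 in replicate 3 of daf-2 and pitr-1 RNAi, against -1.06 and -1.22 in replicate 1. These genes lay at -0.58 in replicate 3 of empty vector and -0.39 in replicate 1. The genes called lower lay at 0.22 and 0.24 log2 in replicate 3 of daf-2 and pitr-1 RNAi, against 0.98 and 1.26 in replicate 1, and at 0.71 and 0.45 in replicates 3 and 1 of empty vector. The genes and the libraries were both chosen on these values, so this order restates the choice. In the empty vector pair 35.7% of the genes called higher, 74.6% of those called lower and 52.4% of all tested genes had a difference above 0.

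Gene lists were described by the median of their members over a mean of 1 CPM in the 6 libraries. Some genes named under a list were chosen on the pair differences themselves, as its extreme members or for the gap between pairs. They are not typical members. Over all such genes the median was 0.00, 0.01 and 0.04 log2 in the daf-2 RNAi, pitr-1 RNAi and empty vector pairs, and 49.8%, 50.4% and 52.5% of them had a difference above 0. Counts of called members are given beside 9.71% called higher and 11.4% called lower over all genes tested in the RNAi pairs. The plot of list medians shows 35 lists with at least 5 such members. In most of those with a large median, the daf-2 and pitr-1 RNAi pairs stood on one side of the empty vector pair.

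**Figure D3:**
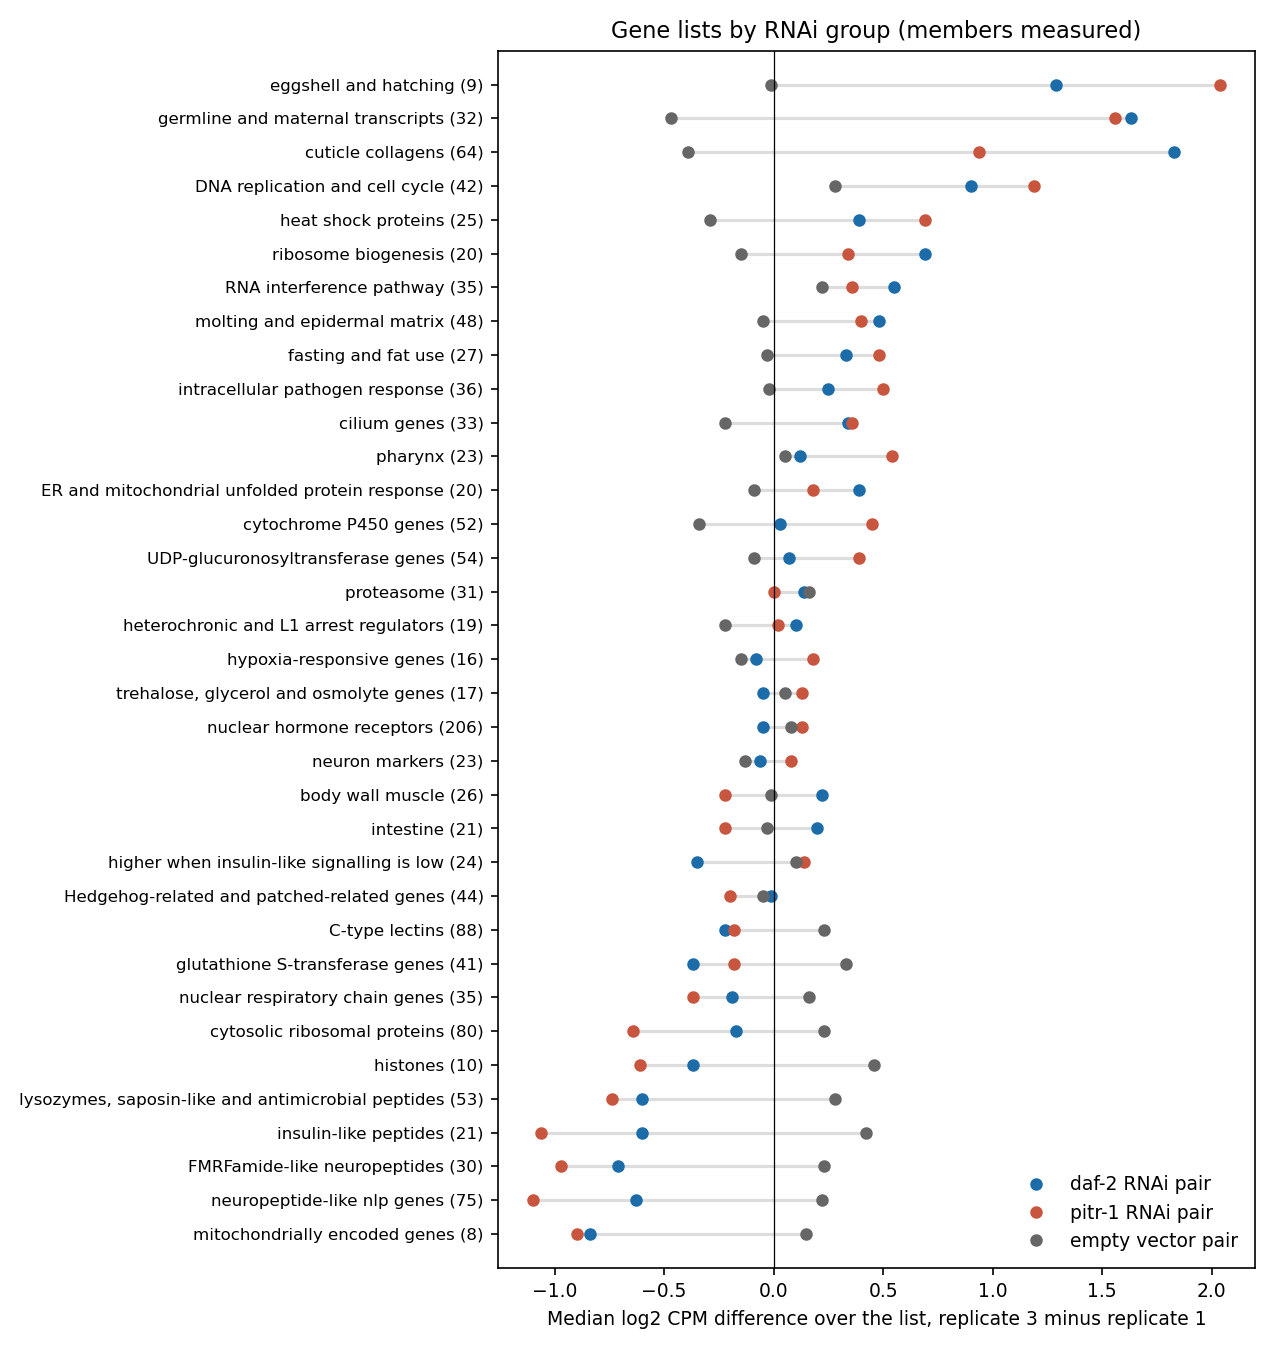
Median difference of each gene list, replicate 3 minus replicate 1 (log2 CPM), with 1 point for each of the daf-2 RNAi, pitr-1 RNAi and empty vector pairs and the number of members measured in brackets; lists are sorted by the mean of the RNAi pairs. Eggshell, germline, cuticle collagen and cell cycle genes lie at the top, and mitochondrial, neuropeptide and insulin-like peptide genes at the bottom, where the empty vector pair lies on the opposite side of 0.

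Germline and maternal transcripts, mostly RNA-binding regulators of the oocyte and early embryo, had medians of 1.63, 1.56 and -0.47 log2 in the daf-2 RNAi, pitr-1 RNAi and empty vector pairs, over 32 members. Of these, 29, 27 and 9 members were above 0 in the 3 pairs, and edgeR called 17 higher and 0 lower in the RNAi pairs. pos-1, which encodes a maternal CCCH zinc finger protein for early cell fates, had 63.2 and 87.3 CPM in replicate 3 of daf-2 and pitr-1 RNAi, against 15 and 4.19 CPM in replicate 1. In empty vector pos-1 had 5.58 CPM in replicate 3 and 4.57 CPM in replicate 1. Replicates 4 and 2 spread from 4.39 to 68.2 CPM, the highest being replicate 2 of daf-2 RNAi, so that the high libraries were not those of replicate 3 alone. mex-5, a related zinc finger gene of embryonic polarity, had 23.8 and 29.5 CPM in replicate 3 of daf-2 and pitr-1 RNAi, against 2.39 and 1.83 CPM in replicate 1. Empty vector had 3.27 CPM in replicate 3 and 1.46 CPM in replicate 1. The abundant members did not move in this way: ifet-1, a translational repressor, had 94.5 and 99.8 CPM in replicate 3 of daf-2 and pitr-1 RNAi, against 111 and 125 CPM in replicate 1, cgh-1, a DEAD-box RNA helicase, had pair differences of 0.14 and 0.01 log2, and car-1, its partner in RNA granules, 0.12 and 0.25. rme-2, the yolk receptor of oocytes, went the other way, with 2.42 and 4.0 CPM in replicate 3 of daf-2 and pitr-1 RNAi, against 3.68 and 45.3 CPM in replicate 1, and with 2.3 CPM in replicate 3 and 23.4 CPM in replicate 1 of empty vector. The pairs of replicate 4 minus 2 had list medians of -1.33, -0.49 and -0.30 log2, so a shift of this size in these genes was also present between daf-2 RNAi replicates outside the 6 libraries. In whole larvae, fewer cells of a type and less RNA per cell cannot be told apart.

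Eggshell genes had medians of 1.29, 2.04 and -0.01 log2 in the 3 pairs over 9 members, all at low levels. edgeR called 5 of them higher in the RNAi pairs. cbd-1, for a chitin-binding eggshell protein, had 11.1 and 17.3 CPM in replicate 3 of daf-2 and pitr-1 RNAi, against 2.29 and 6.28 CPM in replicate 1. In empty vector cbd-1 had 3.27 CPM in replicate 3 and 6.94 CPM in replicate 1. cpg-1 and cpg-2 encode chondroitin proteoglycans of the eggshell. cpg-1 was higher in replicate 3 in all 3 groups, with pair differences of 1.29 and 2.23 log2 in daf-2 and pitr-1 RNAi and 1.45 in empty vector. cpg-2 had 7.97 and 9.33 CPM in replicate 3 of daf-2 and pitr-1 RNAi, against 2.39 and 0.523 CPM in replicate 1. Empty vector cpg-2 stood at 1.21 CPM in replicate 3 and 1.1 CPM in replicate 1. The whole list summed to 44.6 and 60.6 CPM in replicate 3 of daf-2 and pitr-1 RNAi, against 14.7 and 15.2 CPM in replicate 1, and to 20.3 CPM in replicate 3 and 21.4 CPM in replicate 1 of empty vector. Early embryo zygotic genes were nearly silent: 3 of 24 passed a mean of 1 CPM, and most of their summed level was sdz-24, at 44.4 and 46.3 CPM in replicate 3 of daf-2 and pitr-1 RNAi, against 41.1 and 44.5 CPM in replicate 1.

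DNA replication and cell cycle genes had positive medians in all 3 pairs, at 0.90, 1.19 and 0.28 log2 over 42 members. Of these, 38, 39 and 26 were above 0 in the daf-2 RNAi, pitr-1 RNAi and empty vector pairs, and 22 were called higher and 0 lower in the RNAi pairs. rnr-2, the small subunit of ribonucleotide reductase, had 79.1 and 86.9 CPM in replicate 3 of daf-2 and pitr-1 RNAi, against 30.6 and 22 CPM in replicate 1. In empty vector rnr-2 stood at 32.7 CPM in replicate 3 and 28.3 CPM in replicate 1. mcm-3, a subunit of the replicative helicase, had 23.4 and 22.3 CPM in replicate 3 of daf-2 and pitr-1 RNAi, against 8.66 and 6.54 CPM in replicate 1, while empty vector stayed at 5.46 and 6.03 CPM. pcn-1, the sliding clamp PCNA, had 52.6 and 57 CPM in replicate 3 of daf-2 and pitr-1 RNAi, against 14.6 and 13.1 CPM in replicate 1. With empty vector pcn-1 had 12.5 CPM in replicate 3 and 7.3 CPM in replicate 1. In replicates 4 and 2 mcm-3 ranged from 8.36 to 28.1 CPM, which takes in replicate 3 of the RNAi groups, and pcn-1 from 12.8 to 44.6 CPM, which lies below it. cyb-1, a mitotic cyclin B, was higher in replicate 3 of every group: 41.9 and 43.2 CPM in replicate 3 of daf-2 and pitr-1 RNAi, against 9.86 and 8.9 CPM in replicate 1. Empty vector had 8.12 CPM in replicate 3 and 2.37 CPM in replicate 1. cya-1, a cyclin A gene, was the exception at the other end, with pair differences of -0.26 and -0.20 log2 in the RNAi groups and -0.62 in empty vector. The list summed to 913 and 949 CPM in replicate 3 of daf-2 and pitr-1 RNAi, against 441 and 411 CPM in replicate 1, to 432 CPM in replicate 3 and 375 CPM in replicate 1 of empty vector, and to 496 to 855 CPM in replicates 4 and 2.

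Cuticle collagens are the structural proteins of the cuticle, secreted by the epidermis in pulses before hatching and before each molt. They had medians of 1.83, 0.94 and -0.39 log2 in the 3 pairs, over 64 members, and 59, 49 and 20 members were above 0. In the RNAi pairs 27 were called higher and 0 lower. dpy-17 had 35.1 and 46.7 CPM in replicate 3 of daf-2 and pitr-1 RNAi, against 1.1 and 2.36 CPM in replicate 1. Empty vector had 4.24 CPM in replicate 3 and 6.21 CPM in replicate 1, between these, and replicates 4 and 2 spread from 2.32 to 24.6 CPM. dpy-14 had 32.9 and 32.5 CPM in replicate 3 of daf-2 and pitr-1 RNAi, against 1.49 and 2.88 CPM in replicate 1. In empty vector dpy-14 had 1.09 CPM in replicate 3 and 3.1 CPM in replicate 1. The most abundant collagens parted by RNAi group: col-42 had 510.0 and 186 CPM in replicate 3 of daf-2 and pitr-1 RNAi, against 132 and 137 CPM in replicate 1, col-39 had 159 and 97.2 CPM in replicate 3 of daf-2 and pitr-1 RNAi, against 46.8 and 85.1 CPM in replicate 1, and col-98 had 224 and 91.5 CPM in replicate 3 of daf-2 and pitr-1 RNAi, against 96.6 and 108 CPM in replicate 1. For these 3 genes the daf-2 RNAi pair moved by 1.95, 1.76 and 1.21 log2 and the pitr-1 RNAi pair by 0.44, 0.19 and -0.24, so the gap lay mainly in daf-2 RNAi. Replicates 4 and 2 of daf-2 RNAi parted as well, at 838 and 439 CPM for col-42, 305 and 163 CPM for col-39 and 283 and 164 CPM for col-98. The list medians of replicate 4 minus 2 were 0.63, -0.26 and -0.14 log2 in daf-2 RNAi, pitr-1 RNAi and empty vector. col-166 had pair differences of 0.06 and -0.77 log2 in the RNAi groups and 0.83 in empty vector. Collagen genes form a large family of similar sequence, and how shared reads were counted is not given in the sources used here.

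Molting and epidermal matrix genes moved less as a list, with medians of 0.48, 0.40 and -0.05 log2 over 48 members, 10 called higher and 3 called lower in the RNAi pairs, where 9.71% of all genes were called higher and 11.4% lower. noah-2, a zona pellucida domain protein of the embryonic sheath around the epidermis, had 17.3 and 26.1 CPM in replicate 3 of daf-2 and pitr-1 RNAi, against 1.39 and 1.83 CPM in replicate 1. Empty vector noah-2 stood at 0.849 CPM in replicate 3 and 2.37 CPM in replicate 1. mlt-7, a peroxidase needed for molting, ran the other way at 76.6 and 98.9 CPM in replicate 3 of daf-2 and pitr-1 RNAi, against 127 and 146 CPM in replicate 1. In empty vector mlt-7 stood at 134 CPM in replicate 3 and 92.2 CPM in replicate 1. The abundant vab-10, a spectraplakin of epidermal attachments, differed by 0.40 and 0.10 log2 in the RNAi pairs, and bli-4, a proprotein convertase for collagens, by 0.04 and 0.27. ptr-2, a patched-related gene, had 13.8 and 13.1 CPM in replicate 3 of daf-2 and pitr-1 RNAi, against 3.39 and 0.523 CPM in replicate 1, and 1.58 CPM in replicate 3 and 4.02 CPM in replicate 1 of empty vector, although its list of Hedgehog-related and patched-related genes had medians of -0.01, -0.20 and -0.05.

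**Figure D4:**
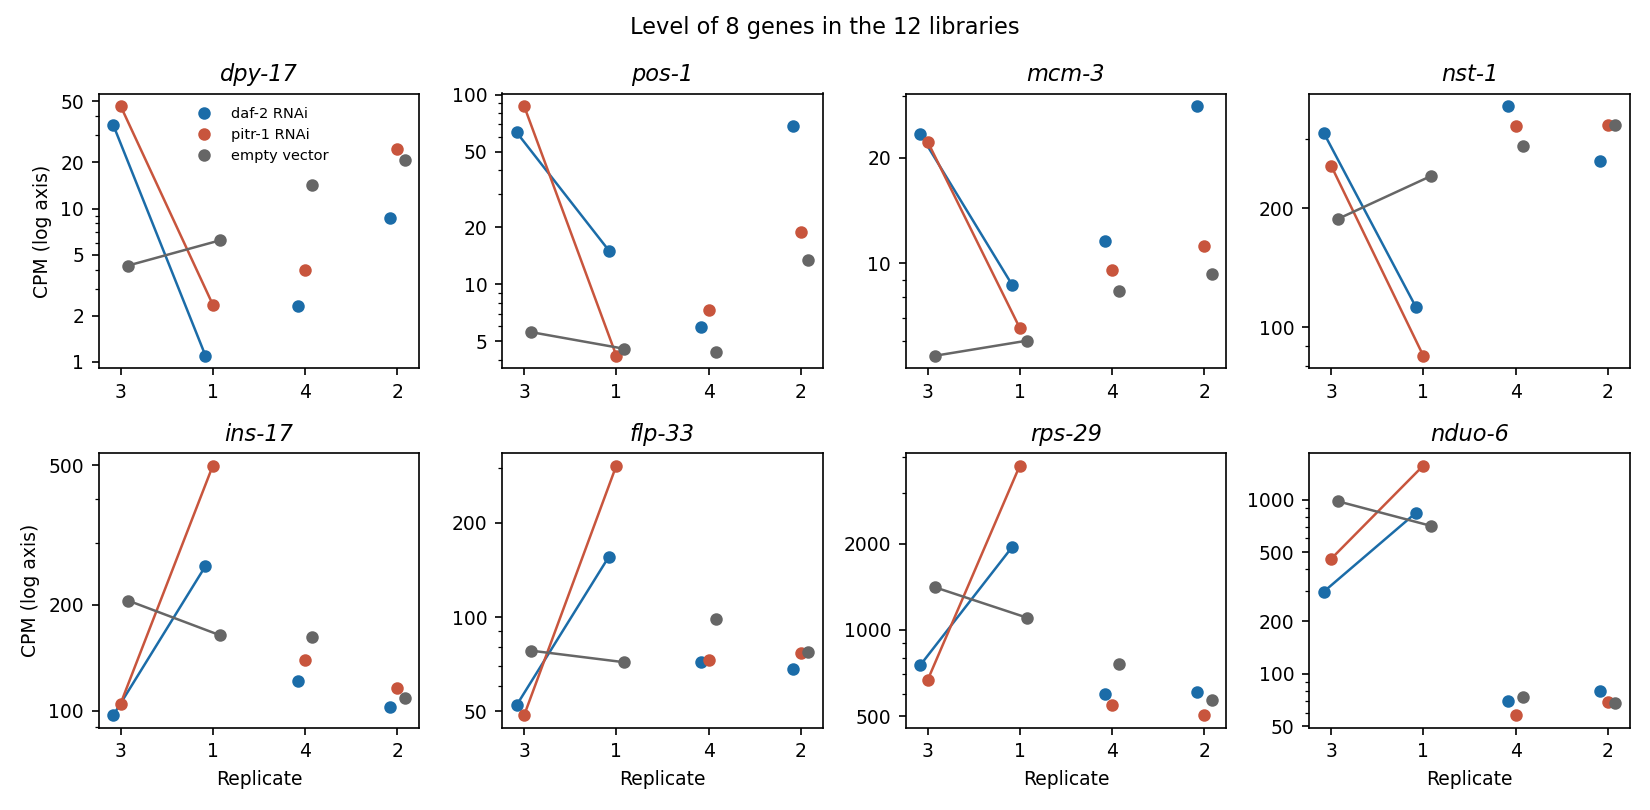
Level (CPM, log axis) of 8 genes in each of the 12 libraries, with lines from replicate 3 to replicate 1 of a group. Of these genes, dpy-17, nst-1, flp-33, rps-29 and nduo-6 are extreme members of their lists by mean pair difference. The daf-2 and pitr-1 RNAi lines fall to the right for dpy-17, pos-1, mcm-3 and nst-1 and rise for ins-17, flp-33, rps-29 and nduo-6, while the empty vector points lie closer together.

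Ribosome biogenesis genes, which act in the nucleolus to make ribosomes, had medians of 0.69, 0.34 and -0.15 log2 in the 3 pairs over 20 members, 7 of them called higher and 0 lower in the RNAi pairs. nst-1, the nucleostemin GTPase, had 311 and 257 CPM in replicate 3 of daf-2 and pitr-1 RNAi, against 113 and 84.8 CPM in replicate 1. With empty vector nst-1 had 188 CPM in replicate 3 and 241 CPM in replicate 1. In replicates 4 and 2 nst-1 lay between 263 and 363 CPM. The RNAi libraries of replicate 1 were the lowest, and empty vector replicates 3 and 1 and replicate 3 of pitr-1 RNAi also lay below that range. lpd-7, the homolog of Pescadillo in ribosome assembly, had 580.2 and 501 CPM in replicate 3 of daf-2 and pitr-1 RNAi, against 295 and 243 CPM in replicate 1. Empty vector had 454 CPM in replicate 3 and 627 CPM in replicate 1. dao-5, a Nopp140-like nucleolar protein, had pair differences of 0.47 log2 in daf-2 RNAi, -0.85 in pitr-1 RNAi and 0.19 in empty vector, in no common direction.

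Neuropeptide genes, which encode the peptide signals of neurons, lay mostly lower in replicate 3 of the RNAi pairs. FMRFamide-like (flp) genes had medians of -0.71, -0.97 and 0.23 log2 in the 3 pairs, with 27, 27 and 3 of 30 members below 0, and 24 were called lower and 0 higher in the RNAi pairs. flp-33 had 52.3 and 48.5 CPM in replicate 3 of daf-2 and pitr-1 RNAi, against 156 and 305 CPM in replicate 1. In empty vector flp-33 had 78.1 CPM in replicate 3 and 71.8 CPM in replicate 1. flp-11, the transmitter of a sleep-promoting neuron, had 206 and 236 CPM in replicate 3 of daf-2 and pitr-1 RNAi, against 547 and 736 CPM in replicate 1. Empty vector flp-11 stood at 381 CPM in replicate 3 and 302 CPM in replicate 1. Its replicates 4 and 2 lay between 213 and 276 CPM. The libraries of replicate 1 in the RNAi groups were the highest, and empty vector replicates 3 and 1 also lay above that range. flp-6 had the highest mean difference over the 3 pairs, 0.19 log2, among members of at least 5 CPM on average. It had 105 and 127 CPM in replicate 3 of daf-2 and pitr-1 RNAi, against 97 and 120.1 CPM in replicate 1.

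The neuropeptide-like (nlp) genes had medians of -0.63, -1.1 and 0.22 log2, and 66, 71 and 17 of 75 members were below 0. In the RNAi pairs 53 were called lower and 0 higher. nlp-49 had 438 and 538 CPM in replicate 3 of daf-2 and pitr-1 RNAi, against 1047 and 1198 CPM in replicate 1, while nlp-1 had 65.5 and 61.2 CPM in replicate 3 of daf-2 and pitr-1 RNAi, against 58.2 and 38 CPM in replicate 1. Other neuronal genes did not follow them. Neuron markers had medians of -0.06, 0.08 and -0.13 log2 over 23 members. egl-21, the carboxypeptidase that trims neuropeptide precursors, had 669.9 and 710.2 CPM in replicate 3 of daf-2 and pitr-1 RNAi, against 495 and 479.5 CPM in replicate 1. In empty vector egl-21 stood at 861 CPM in replicate 3 and 993 CPM in replicate 1. egl-3, the proprotein convertase that cuts the same precursors, had 347 and 354 CPM in replicate 3 of daf-2 and pitr-1 RNAi, against 281 and 308 CPM in replicate 1. With empty vector egl-3 had 364 CPM in replicate 3 and 551 CPM in replicate 1. rgef-1, a neuronal Ras exchange factor, had 8.07 and 6.26 CPM in replicate 3 of daf-2 and pitr-1 RNAi, against 2.59 and 2.36 CPM in replicate 1. Empty vector had 6.55 CPM in replicate 3 and 15.2 CPM in replicate 1. snb-1, the synaptic vesicle protein synaptobrevin, was the marker that went with the neuropeptides, at 338 and 326 CPM in replicate 3 of daf-2 and pitr-1 RNAi, against 589 and 633 CPM in replicate 1. Cilium genes of sensory neurons had medians of 0.34, 0.36 and -0.22 log2, with 4 of 33 called higher and 0 lower in the RNAi pairs, near the 9.71% called higher over all genes.

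Insulin-like peptides, the ligands of DAF-2, had medians of -0.60, -1.06 and 0.42 log2 in the 3 pairs over 21 members, 20, 18 and 3 of them below 0. In the RNAi pairs 13 were called lower and 0 higher. ins-17 had 96.9 and 105 CPM in replicate 3 of daf-2 and pitr-1 RNAi, against 258 and 499 CPM in replicate 1, and 206 CPM in replicate 3 and 164 CPM in replicate 1 of empty vector, with 102 to 162 CPM in replicates 4 and 2. ins-1 had 79.99 and 103 CPM in replicate 3 of daf-2 and pitr-1 RNAi, against 131 and 183 CPM in replicate 1. In empty vector ins-1 had 159.7 CPM in replicate 3 and 133 CPM in replicate 1. The list summed to 448 and 461 CPM in replicate 3 of daf-2 and pitr-1 RNAi, against 846 and 1248 CPM in replicate 1, and to 825 CPM in replicate 3 and 672 CPM in replicate 1 of empty vector. Its sum was 395 to 506 CPM in replicates 4 and 2, which replicate 3 of both RNAi groups lay within and every other library of the 6 exceeded.

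Genes known to rise when DAF-2 signalling falls had medians in no common direction, at -0.35, 0.14 and 0.10 log2. sodh-1, an alcohol dehydrogenase, was higher in replicate 3 of every group, at 123 and 492 CPM in replicate 3 of daf-2 and pitr-1 RNAi, against 50.5 and 75.9 CPM in replicate 1. Empty vector sodh-1 stood at 234 CPM in replicate 3 and 70.9 CPM in replicate 1. mtl-2, a metallothionein, had 39.7 and 32.4 CPM in replicate 3 of daf-2 and pitr-1 RNAi, against 78.1 and 126 CPM in replicate 1. In empty vector mtl-2 stood at 68 CPM in replicate 3 and 63.2 CPM in replicate 1. sod-3, a mitochondrial superoxide dismutase induced by the FOXO factor DAF-16, had 29.5 and 16.10 CPM in replicate 3 of daf-2 and pitr-1 RNAi, against 39 and 15.2 CPM in replicate 1. With empty vector sod-3 had 8.85 CPM in replicate 3 and 9.86 CPM in replicate 1. Its daf-2 RNAi libraries were the highest in either replicate. cpr-4, a cathepsin B-like protease, had 12.7 and 44.7 CPM in replicate 3 of daf-2 and pitr-1 RNAi, against 5.68 and 33 CPM in replicate 1. Empty vector had 58.3 CPM in replicate 3 and 34.5 CPM in replicate 1. Here too daf-2 RNAi stood apart in either replicate, as the lowest group. asp-10, an aspartyl protease, had 46.7 and 155 CPM in replicate 3 of daf-2 and pitr-1 RNAi, against 69.9 and 145 CPM in replicate 1, and 60.9 CPM in replicate 3 and 56.6 CPM in replicate 1 of empty vector, with pitr-1 RNAi highest in either replicate. For each of these 3 genes the group that stood apart was thus the same in replicates 3 and 1. All 3 were named because earlier results of these same data had named them, so nothing is read from this. cpr-4 and asp-10 are not members of the list described here.

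Mitochondrially encoded genes of the respiratory chain had medians of -0.84, -0.90 and 0.15 log2 in the 3 pairs over 8 members. All were below 0 in the daf-2 and pitr-1 RNAi pairs, and 7 were called lower and 0 higher there. ctb-1, cytochrome b, had 7141 and 7658 CPM in replicate 3 of daf-2 and pitr-1 RNAi, against 13018 and 13806 CPM in replicate 1. In empty vector ctb-1 had 10565 CPM in replicate 3 and 9683 CPM in replicate 1. Its level in replicates 4 and 2 was 1126 to 2224 CPM, below every library of replicates 3 and 1. ctc-3, subunit III of cytochrome c oxidase, had 7580.3 and 9451 CPM in replicate 3 of daf-2 and pitr-1 RNAi, against 16347 and 18509 CPM in replicate 1. Empty vector ctc-3 stood at 12452 CPM in replicate 3 and 13958 CPM in replicate 1. nduo-6, a subunit of complex I, had 296 and 457 CPM in replicate 3 of daf-2 and pitr-1 RNAi, against 841 and 1569 CPM in replicate 1. In empty vector nduo-6 stood at 977 CPM in replicate 3 and 708 CPM in replicate 1. Nuclear genes of the respiratory chain had medians of -0.19, -0.37 and 0.16 log2, with 14 of 35 called lower and 1 higher in the RNAi pairs. cox-6C, a short subunit of cytochrome c oxidase, had 255 and 213 CPM in replicate 3 of daf-2 and pitr-1 RNAi, against 528 and 931 CPM in replicate 1, whereas the abundant atp-2, the beta subunit of ATP synthase, had 1061 and 909.8 CPM in replicate 3 of daf-2 and pitr-1 RNAi, against 785 and 855 CPM in replicate 1.

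Cytosolic ribosomal protein genes had medians of -0.17, -0.64 and 0.23 log2 over 80 members, with 13 called higher and 40 lower in the RNAi pairs. rps-29, one of the shortest, had 754 and 668 CPM in replicate 3 of daf-2 and pitr-1 RNAi, against 1951 and 3737 CPM in replicate 1. With empty vector rps-29 had 1408 CPM in replicate 3 and 1103 CPM in replicate 1. rps-6 had 968 and 741 CPM in replicate 3 of daf-2 and pitr-1 RNAi, against 352 and 438 CPM in replicate 1. Empty vector had 897 CPM in replicate 3 and 848 CPM in replicate 1. The list summed to 112426 and 94186 CPM in replicate 3 of daf-2 and pitr-1 RNAi, against 116171 and 145178 CPM in replicate 1, and to 138119 CPM in replicate 3 and 117960.0 CPM in replicate 1 of empty vector. Lysozyme, saposin-like and antimicrobial peptide genes had medians of -0.60, -0.74 and 0.28 log2 over 53 members, 25 called lower and 0 higher. spp-31, a saposin-like gene, had 28.3 and 15.9 CPM in replicate 3 of daf-2 and pitr-1 RNAi, against 66.4 and 88.2 CPM in replicate 1. In empty vector spp-31 had 43.9 CPM in replicate 3 and 37.3 CPM in replicate 1. The replication-independent histone H3.3 genes showed the same order, with 325 and 302 CPM in replicate 3 of daf-2 and pitr-1 RNAi, against 482 and 687 CPM in replicate 1 for his-71 and 313 and 369 CPM in replicate 3 of daf-2 and pitr-1 RNAi, against 406 and 504 CPM in replicate 1 for his-72.

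Gene length moved with these lists. In the shortest class, genes with up to 300 nt of exon, the median difference was -0.60 log2 in the daf-2 RNAi pair, -1.59 in the pitr-1 RNAi pair and 0.27 in the empty vector pair, over 110 genes of at least 5 CPM on average. From 1501 to 2000 nt it was 0.04, 0.17 and 0.01 over 1809 genes, and above 5000 nt 0.36, 0.05 and -0.26 over 342 genes. In the same short class the pairs of replicate 4 minus 2 had medians of -0.15, 0.15 and 0.20. The RNAi pairs had 60.9% of the shortest class called lower and 0.909% called higher, against 5.26% called lower and 20.2% called higher in the longest, and 11.4% lower and 9.71% higher over all genes tested. Lengths are those of the Ensembl release 115 annotation, summed over the exons of a gene.

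**Figure D5:**
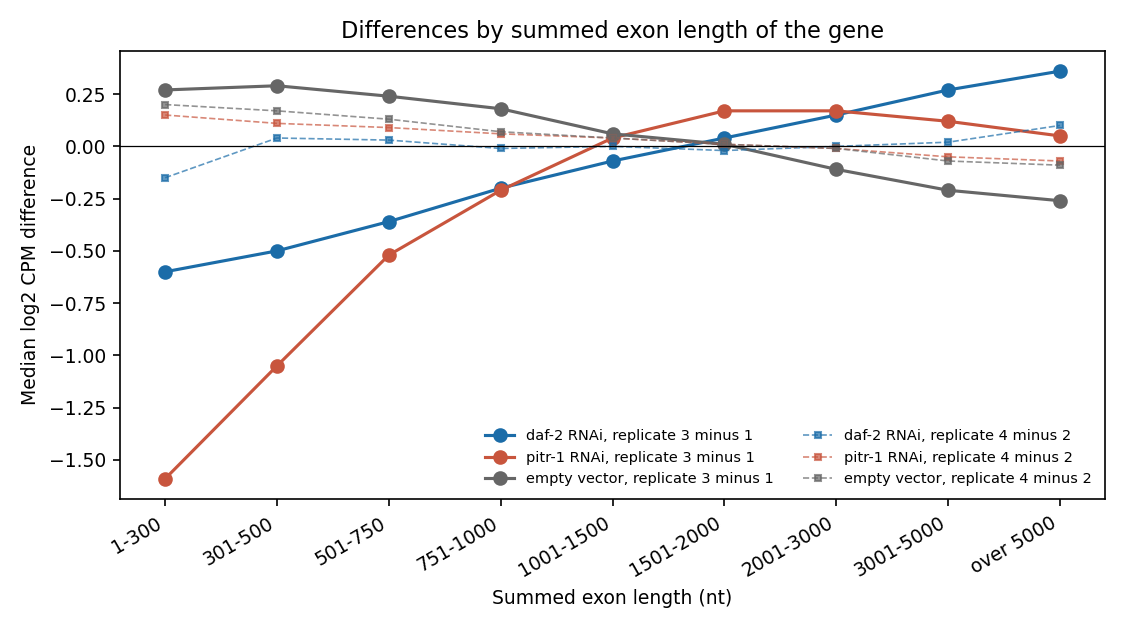
Median log2 CPM difference of genes in 9 classes of summed exon length (nt), for replicate 3 minus replicate 1 (solid lines) and replicate 4 minus replicate 2 (dashed lines) in each group. Short genes lie at -0.60 and -1.59 in the daf-2 and pitr-1 RNAi pairs and at 0.27 in the empty vector pair, and genes above 5000 nt at 0.36, 0.05 and -0.26.

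With the median of its length class taken from each gene, an alternative added after the values were seen, the flp list stood at -0.33, -0.42 and 0.01 log2 in the 3 pairs and the nlp list at -0.22, -0.40 and -0.03. Insulin-like peptides stood at -0.24, -0.24 and 0.19, lysozyme and antimicrobial genes at -0.24, -0.17 and 0.05, and histones at 0.06, 0.01 and 0.20. Ribosomal protein genes turned to 0.26, 0.28 and -0.04 and mitochondrially encoded genes to -0.70, -0.73 and 0.04. The lists with the highest medians changed little: 1.4, 1.46 and -0.33 for germline and maternal transcripts, 1.92, 1.08 and -0.43 for collagens and 0.91, 1.09 and 0.33 for DNA replication and cell cycle. The part of length, alignment rate and ribosomal RNA share in the differences was not tested beyond this.

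Stress, metabolic and arrest genes showed mixed directions. Heat shock protein genes had medians of 0.39, 0.69 and -0.29 log2 over 25 members. daf-21, the HSP90 chaperone, had 982 and 801 CPM in replicate 3 of daf-2 and pitr-1 RNAi, against 514 and 712 CPM in replicate 1. Empty vector daf-21 stood at 693 CPM in replicate 3 and 976 CPM in replicate 1. F44E5.4, an inducible HSP70 gene with a near-identical neighbour, had 254 and 192 CPM in replicate 3 of daf-2 and pitr-1 RNAi, against 116 and 25.9 CPM in replicate 1. In empty vector F44E5.4 stood at 43.9 CPM in replicate 3 and 42.2 CPM in replicate 1. Small heat shock protein gene hsp-12.2 went the other way, at 102 and 123 CPM in replicate 3 of daf-2 and pitr-1 RNAi, against 209 and 283 CPM in replicate 1. The list thus held genes that were high and genes that were low in replicate 1. In the unfolded protein response list, dnj-27, an ER-resident DnaJ and thioredoxin-domain protein, had 12.31 and 18.7 CPM in replicate 3 of daf-2 and pitr-1 RNAi, against 4.98 and 5.5 CPM in replicate 1. With empty vector dnj-27 had 5.94 CPM in replicate 3 and 7.49 CPM in replicate 1.

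Among genes of fasting and fat use, pck-2, a phosphoenolpyruvate carboxykinase of gluconeogenesis, had 361 and 238 CPM in replicate 3 of daf-2 and pitr-1 RNAi, against 151 and 101 CPM in replicate 1. Empty vector had 237 CPM in replicate 3 and 269 CPM in replicate 1. icl-1, the enzyme of the glyoxylate cycle, was higher in replicate 3 in every group: 73.3 and 141 CPM in replicate 3 of daf-2 and pitr-1 RNAi, against 34.8 and 19.6 CPM in replicate 1. In empty vector icl-1 had 46.4 CPM in replicate 3 and 19.7 CPM in replicate 1. mdt-15, a Mediator subunit that drives fat metabolism genes, had 193 and 249 CPM in replicate 3 of daf-2 and pitr-1 RNAi, against 349.7 and 416 CPM in replicate 1. Heterochronic and arrest regulators had medians of 0.10, 0.02 and -0.22 log2 in the 3 pairs over 19 members. In the RNAi pairs 6 were called higher and 4 lower, where 9.71% of all genes were called higher and 11.4% lower. Among them, cki-1, the cyclin-dependent kinase inhibitor that holds blast cells in arrest, had 43.7 and 46.5 CPM in replicate 3 of daf-2 and pitr-1 RNAi, against 77.4 and 91.9 CPM in replicate 1. Empty vector cki-1 stood at 78.6 CPM in replicate 3 and 73.2 CPM in replicate 1. daf-16, the FOXO factor, had 177 and 185 CPM in replicate 3 of daf-2 and pitr-1 RNAi, against 269 and 254 CPM in replicate 1. lin-28, a heterochronic regulator of early larval fates, had 258 and 272 CPM in replicate 3 of daf-2 and pitr-1 RNAi, against 255 and 220.4 CPM in replicate 1, with little change between replicates. Of the RNA interference list, whose medians were 0.55, 0.36 and 0.22, rde-4, for a double-stranded RNA binding partner of Dicer, was higher in replicate 3 of every group, with pair differences of 1.16 and 1.24 log2 in the RNAi groups and 1.44 in empty vector.

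Among tissue marker lists, body wall muscle had medians of 0.22, -0.22 and -0.01 log2 over 26 members, intestine 0.20, -0.22 and -0.03 over 21, and pharynx 0.12, 0.54 and 0.05 over 23. Muscle myosin unc-54 had 956 and 719 CPM in replicate 3 of daf-2 and pitr-1 RNAi, against 744 and 881 CPM in replicate 1, and 780.3 CPM in replicate 3 and 1046 CPM in replicate 1 of empty vector, all below the 1626 to 2223 CPM of replicates 4 and 2. Pharyngeal myosin myo-1 had 256 and 287 CPM in replicate 3 of daf-2 and pitr-1 RNAi, against 235 and 365 CPM in replicate 1, and 184 CPM in replicate 3 and 267 CPM in replicate 1 of empty vector, against 748 to 998 CPM in replicates 4 and 2. In both genes the gap between these 6 libraries and the other 6 exceeded that between replicates 3 and 1. abu-10, of a family of secreted repeat proteins of the pharynx, had 10.6 and 16.6 CPM in replicate 3 of daf-2 and pitr-1 RNAi, against 0.199 and 1.05 CPM in replicate 1. In empty vector abu-10 stood at 1.21 CPM in replicate 3 and 0.73 CPM in replicate 1. The replicate 1 values of abu-10 in the RNAi groups rest on 2 and 4 counts. The more abundant phat-7 went the other way, at 322 and 332 CPM in replicate 3 of daf-2 and pitr-1 RNAi, against 655 and 733 CPM in replicate 1. Of the pharynx list 5 were called higher and 5 lower in the RNAi pairs, beside 9.71% and 11.4% over all genes.

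The genes for which both RNAi pairs lay farthest above the empty vector pair were gpdh-1, E01G6.1, C49G7.12, idpc-4, dpy-14, noah-2, dpy-17 and chtb-3. They were named by the size of this difference, so their values are a description. gpdh-1, the glycerol-3-phosphate dehydrogenase induced by osmotic stress, had 11.3 and 18.4 CPM in replicate 3 of daf-2 and pitr-1 RNAi, against 0.498 and 2.88 CPM in replicate 1. With empty vector gpdh-1 had 0.121 CPM in replicate 3 and 2.19 CPM in replicate 1. The empty vector value in replicate 3 rests on 1 count. E01G6.1 had 5.35 and 23.3 CPM in replicate 3 of daf-2 and pitr-1 RNAi, against 1.89 and 1.31 CPM in replicate 1, while empty vector had 0.364 CPM in replicate 3 and 7.85 CPM in replicate 1 and its replicate 3 value rests on 3 counts. Both genes were low in replicate 3 of empty vector. C49G7.12 had 11.4 and 32.7 CPM in replicate 3 of daf-2 and pitr-1 RNAi, against 1.99 and 1.83 CPM in replicate 1. Empty vector had 0.97 CPM in replicate 3 and 6.57 CPM in replicate 1. idpc-4 had 10.2 and 44.9 CPM in replicate 3 of daf-2 and pitr-1 RNAi, against 1.49 and 1.31 CPM in replicate 1. In empty vector idpc-4 had 0.849 CPM in replicate 3 and 4.57 CPM in replicate 1. chtb-3 had 7.36 and 28 CPM in replicate 3 of daf-2 and pitr-1 RNAi, against 0.697 and 1.05 CPM in replicate 1. Empty vector chtb-3 stood at 0.485 CPM in replicate 3 and 1.46 CPM in replicate 1. In all of these genes but dpy-17, replicate 3 of empty vector lay below replicate 1 of both RNAi groups. Wide swings were not particular to replicates 3 and 1. Over replicates 4 and 2 idpc-4 spread from 0.343 to 15 CPM and C49G7.12 from 0.258 to 10.2 CPM. E01G6.1 spread there from 1.9 to 16.6 CPM and chtb-3 from 1.66 to 18.4 CPM, while gpdh-1 spread less, from 2.7 to 6.27 CPM.

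In the opposite direction stood sru-46, Y23H5A.8, nhr-202, bath-9, smvt-1, hlh-13, txt-9 and Y75B12B.3. Replicate 1 of empty vector was the lowest of the 6 libraries in all of these genes but txt-9. bath-9 had 7.77 and 6.97 CPM in replicate 3 of daf-2 and pitr-1 RNAi, against 4.98 and 6.54 CPM in replicate 1, and 7.03 CPM in replicate 3 and 0.183 CPM in replicate 1 of empty vector, the last from 1 count. nhr-202, a nuclear hormone receptor gene, had 4.84 and 4.51 CPM in replicate 3 of daf-2 and pitr-1 RNAi, against 8.76 and 7.07 CPM in replicate 1, and 4.73 CPM in replicate 3 and 0.365 CPM in replicate 1 of empty vector, from 2 counts in the last library. smvt-1 had 7.67 and 7.08 CPM in replicate 3 of daf-2 and pitr-1 RNAi, against 6.87 and 8.38 CPM in replicate 1. In empty vector smvt-1 stood at 11.4 CPM in replicate 3 and 0.73 CPM in replicate 1. sru-46, of a chemoreceptor family, had 1.92 and 4.31 CPM in replicate 3 of daf-2 and pitr-1 RNAi, against 7.27 and 13.6 CPM in replicate 1, and 7.4 CPM in replicate 3 and 0.183 CPM in replicate 1 of empty vector, the last again from 1 count. Y23H5A.8 had 9.94 CPM in replicate 3 and 0.548 CPM in replicate 1 of empty vector, and hlh-13, for a basic helix-loop-helix factor, 11.9 CPM in replicate 3 and 1.46 CPM in replicate 1. In txt-9, as in sru-46, the RNAi pairs moved as well, and txt-9 had 2.82 and 6.15 CPM in replicate 3 of daf-2 and pitr-1 RNAi, against 12 and 23.8 CPM in replicate 1. With empty vector txt-9 had 17.7 CPM in replicate 3 and 6.39 CPM in replicate 1.

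A set of genes moved the same way in all 3 pairs, although none was called over the 3. More than 2-fold higher in replicate 3 of every group were 173 genes (1.18% of those tested), and 47 were more than 2-fold lower (0.321%). Those named next were chosen after their values were seen: among genes of at least 5 CPM on average, the 6 higher and the 2 lower ones whose smallest pair difference was largest. They include cyb-1, given above. clec-88, a C-type lectin gene, had 32.2 and 33.2 CPM in replicate 3 of daf-2 and pitr-1 RNAi, against 5.97 and 1.05 CPM in replicate 1. Empty vector had 5.09 CPM in replicate 3 and 1.28 CPM in replicate 1. era-1, an RNA of the early embryo's anterior, had 15.1 and 21 CPM in replicate 3 of daf-2 and pitr-1 RNAi, against 2.49 and 2.62 CPM in replicate 1. In empty vector era-1 had 2.18 CPM in replicate 3 and 0.548 CPM in replicate 1. fbxa-215, an F-box gene, had 10.4 and 13.2 CPM in replicate 3 of daf-2 and pitr-1 RNAi, against 3.29 and 0.785 CPM in replicate 1. Empty vector fbxa-215 stood at 2.91 CPM in replicate 3 and 0.365 CPM in replicate 1. Replicate 3 was the higher library of each group in these genes, and empty vector stood lowest within replicate 3. Replicate 1 of empty vector rests on 3 counts for era-1 and 2 for fbxa-215. Replicate 1 of pitr-1 RNAi rests on 4 counts for clec-88 and 3 for fbxa-215. Replicates 4 and 2 spread from 4.03 to 33.2 CPM for clec-88, 2.58 to 21.7 CPM for era-1 and 1.74 to 10.6 CPM for fbxa-215. col-109 had 10.8 and 11 CPM in replicate 3 of daf-2 and pitr-1 RNAi, against 0.697 and 2.62 CPM in replicate 1, and 4.85 CPM in replicate 3 and 1.46 CPM in replicate 1 of empty vector, and hil-4, a linker histone gene, 9.18 and 13.7 CPM in replicate 3 of daf-2 and pitr-1 RNAi, against 1.89 and 1.57 CPM in replicate 1. In empty vector hil-4 stood at 3.15 CPM in replicate 3 and 0.913 CPM in replicate 1. On the other side R09D1.4 had 4.44 and 1.74 CPM in replicate 3 of daf-2 and pitr-1 RNAi, against 12.64 and 4.45 CPM in replicate 1. Empty vector had 1.46 CPM in replicate 3 and 7.85 CPM in replicate 1. Y67H2A.9 had 2.32 and 4.31 CPM in replicate 3 of daf-2 and pitr-1 RNAi, against 6.67 and 10.2 CPM in replicate 1. In empty vector Y67H2A.9 had 3.03 CPM in replicate 3 and 10.4 CPM in replicate 1. In these genes replicate 1 was the higher library in each of the 3 groups.

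The RNAi groups were last set against empty vector within each replicate number. Of the 14664 genes tested, daf-2 RNAi had 1626 past 2-fold higher and 1066 past 2-fold lower than empty vector in replicate 3. In replicate 1 it had 1849 higher and 1623 lower. Of these, 405 were higher and 192 lower in both replicates, while 333 were higher in replicate 3 and lower in replicate 1, and 202 the reverse. pitr-1 RNAi had 1637 genes higher and 782 lower than empty vector in replicate 3, and 2283 higher and 2276 lower in replicate 1. Of these, 381 were higher and 148 lower in both, 465 were higher in replicate 3 and lower in replicate 1, and 261 the reverse. The overlap that lists of these sizes would share by chance was not computed, so nothing is read from these counts. Across 9898 genes r between the replicate 3 and the replicate 1 difference was -0.08 for daf-2 RNAi and -0.21 for pitr-1 RNAi. The libraries were chosen by a component on which the pairs part, so these r values are a description. dpy-17 was named above for the gap between these differences, so its values only describe that choice. Its daf-2 RNAi minus empty vector was 2.99 log2 in replicate 3 and -2.3 in replicate 1. Its pitr-1 RNAi minus empty vector was 3.4 and -1.33. For nst-1 the same differences were 0.72 and -1.1 for daf-2 RNAi, and 0.45 and -1.51 for pitr-1 RNAi. Both RNAi groups share the empty vector library of each number, so their differences are not independent of each other.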

How the data were processed

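Polyadenylated RNA of 12 cultures was sequenced with a non-directional kit, per the labels; sense and antisense genes at 1 locus are therefore not separated. Each library has a deposited table of read counts, as whole numbers, for 44968 genes. Its 5 summary lines stayed out of library sizes and tests (no feature 1.71% to 4.60%, ambiguous 4.59% to 8.45%, not aligned 16.3% to 39.8% of reads). Tools listed in the submitters' processing notes are HTSeq, Bowtie 1.2.2 and edgeR. Neither build nor annotation is given in the sources used here. The authors also deposited log2 fold changes of their own comparisons, used here for gene names only. Names came from those tables and from Ensembl release 115.

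The counts were fitted with edgeR 4.0.16 in R 4.3.3 (TMM, filterByExpr, 14664 genes kept, robust quasi-likelihood fit of all 12 libraries, two-sided tests, Benjamini-Hochberg). The additive fit had RNAi group and replicate number as terms (6 residual degrees of freedom). A second fit gave empty vector its own replicate terms (4 residual degrees of freedom). CPM are scaled by TMM to the library's total, ribosomal RNA included, and pair differences are log2 CPM with a prior count of 2. Scripts were tested on simulated data. DESeq2 1.42.0, other scalings, filters and prior counts, and leaving out each library were tried. Nothing in the labels says that the cultures of a group were independent beyond the words biological replicate.

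The replicate numbers, the 38 gene lists and the tests were chosen with earlier results of these data known. Genes named are, by a rule: those called over all 3 pairs (none); the 8 farthest above and the 8 farthest below between both RNAi pairs and the empty vector pair, at a mean of at least 5 CPM; the 3 most abundant and the 2 extreme members of each list; and daf-2, pitr-1, hrde-1, sod-3, cpr-4, asp-10, pos-1, mcm-3 and pcn-1. Depth limits the precision of genes with few counts.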

Additional observations from a re-analysis of the deposited data

Results flagged for a closer look

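Among 9 measures of the libraries in 3 groups of 4, 3 libraries lay far from the others of their group by Dixon's criterion, where chance alone gives about 5% of 27. Replicate 3 of daf-2 RNAi had the most gene counts of its group, 10502750. Replicate 1 of pitr-1 RNAi had 39.78% of reads not aligned, and replicate 1 of empty vector 28.01%, each the highest of its group. Each of these libraries stands in 1 of the 3 pairs, and the part of depth and alignment rate in the differences was not tested.

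The replicate 3 minus replicate 1 difference itself differed between the RNAi groups and empty vector: edgeR called 877 genes with the daf-2 and pitr-1 RNAi pairs higher than the empty vector pair and 1184 with the RNAi pairs lower. The libraries were chosen by a component that already parts these pairs, so the counts describe them and are no independent evidence.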

How the results depend on the processing

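No paired analysis was possible because the shared replicate number, which would be the block, is itself the factor compared. This holds only for pairing by replicate number. The additive fit is itself a paired analysis of replicates 3 and 1, with the RNAi group as the block. Without a term for the RNAi group the count over 3 pairs was also 0. Over 3 pairs, 912 genes were called without a filter on low counts, 547 by DESeq2, 3030 without the empty vector pair, and 0 to 1960 with 1 library left out. Between replicates 4 and 2, 137 were called without a filter and 38 by DESeq2, and 0 with any 1 library left out. The count of the RNAi pairs ranged from 1121 to 4145 and that of the difference from 951 to 3753 with 1 library left out; other settings left both within 1.5-fold. With a prior count of 10, 1556 genes were past 2-fold in the daf-2 RNAi pair and 1873 in the empty vector pair. Of the 16 genes named for the largest difference between pairs, whose values in the RNAi pairs were recomputed under each setting, smvt-1 alone reversed, near 0 throughout: 0.02 log2 without a filter, 0.01 at a mean of at least 5 CPM, 0.14 without replicate 1 and 0.05 without replicate 3 of pitr-1 RNAi, and -0.21 without replicate 1 of daf-2 RNAi. The causes were not tested. Of the list medians under alternatives, 48 moved by more than the SD over the 3 pairs and 393 did not; most that moved did so with total counts, which shift the median of all genes. Depth limits the genes near 1 count per library.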
